A study of Mus musculus with 2084 samples.

Results

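Primed quiescent neural stem cells, called qNSC2 by the submitters, are one of the transcriptional states sorted from the adult mouse ventricular-subventricular zone (vSVZ), the germinal layer along the lateral ventricles. The cells were taken by the submitters' cell type label alone, in any genotype and treatment, and 193 of the 1981 labelled cells in the main RNA count table carried it. Each cell is one full-length Smart-seq3 transcriptome from a study that read RNA, DNA methylation and chromatin accessibility of the same single cells; only the RNA counts of the main table were used here.

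In the adult vSVZ, quiescent stem cells share much of their transcriptome with parenchymal astrocytes. They pass through a shallow, primed quiescence into activated stem cells (aNSC), which give rise to transit-amplifying progenitors (TAP) and then to neuroblasts bound for the olfactory bulb. Leaving quiescence is known for a gain of ribosomal and cell cycle transcripts and for a loss of glial lipid metabolism and BMP-Id signalling.

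The 193 qNSC2 cells came from 4 arms with enough cells to be summed, and from 2 small groups kept apart. KO cells 2 days after ischemia came from TiCY-IFN(A/G)R KO mice (replicate letter pJ, 67 cells), KO naive cells from IFN(A/G)R KO mice (pJ, 31 cells), TiCY naive cells from TiCY mice (pM, 39 cells), and WT naive cells from letters pA (3 cells), pB (3 cells), pC (1 cell), pD (34 cells) and pE (9 cells). TiCY mice carry a tamoxifen-inducible Cre under Tlx (Nr2e1), a gene of neural stem cells, which switches on eYFP; IFN(A/G)R KO mice lack the receptors of interferon alpha and gamma. TiCY mice were given tamoxifen at 2 months of age, and ischemia, by occlusion of both carotid arteries, followed 2 weeks later. The WT mice were naive by their labels. Whether they or the IFN(A/G)R KO naive mice had tamoxifen is not stated there. The 6 TiCY post-ischemia cells (5 at 2 days, letter pI; 1 at 21 days, letter pH) are described on their own. A letter marks a biological replicate, which is 1 mouse or several pooled mice depending on the plate, so every KO value comes from letter pJ and every TiCY naive value from letter pM. Letters pA to pD are vSVZ and all others are striatum with vSVZ. Sorting used antibodies to GLAST, Prominin1, CD9, PSA-NCAM, O4, Ter119 and CD45, so the genes of those proteins are not read as findings.

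Counts were summed over the qNSC2 cells of each letter and treatment, giving 7 sums of at least 3 cells with 1521898 to 9624595 counts, and levels below are CPM, the counts of a gene in a sum scaled to one common total. CPM are not scaled to transcript length, so levels are compared between groups of cells and not between genes. In such a sum, fewer expressing cells and less RNA per expressing cell cannot be told apart. Per cell, the qNSC2 libraries held 4021 to 1354787 counts (median 152080) and 1605 to 9617 detected genes (median 4549). The libraries fall into sets that run along the arms: mitochondrial transcripts took 0.0755% to 0.268% of counts in the KO and TiCY sums, against 0.843% to 6.12% in the 4 WT sums, and Malat1 had 0.216% to 1.17% in the KO and TiCY sums and no count in WT. Genotype and library set cannot be told apart, so WT is not set against the other arms. The tests of genes between cell types hold the arm fixed, and the counts of constant genes hold the letter and treatment fixed. Those tests thus pool the WT letters, whose libraries differ too, with mitochondrial shares from 0.843% in pD to 6.12% in pE. In them qNSC2 of pA and pB had no aNSC or TAP sum of its letter, and pC gave those sums without qNSC2. The letter as a block was an alternative. The submitters' labels may themselves rest on these transcriptomes. P-values between types are therefore a description of the labelled populations.

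The labelled cells were first described by 6 genes known as marks of this state. Thbs4, the secreted matrix protein thrombospondin 4, and Tshr, the thyrotropin receptor, were high in every qNSC2 sum. Thbs4 had 707 CPM in KO cells at 2 days, 657 CPM in KO naive cells, 823 CPM in TiCY naive cells, and 736, 408, 401 and 602 CPM in WT pA, pB, pD and pE. Over the other types, the highest Thbs4 sum was 185 CPM in qNSC1 (the more deeply quiescent state), 136 CPM in vSVZ astrocytes, 253 CPM in aNSC, 52.5 CPM in TAP and 0.0433 CPM in neuroblasts. No qNSC2 sum overlapped any of them. Tshr had 68.4 CPM in KO cells at 2 days, 97.7 CPM in KO naive cells, 132 CPM in TiCY naive cells, and 68.3, 150, 15.4 and 42.0 CPM in WT pA, pB, pD and pE. The lowest of these, WT pD, still lay above the highest Tshr sum of any other type, 8.36 CPM in aNSC.

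The other 4 markers set qNSC2 off from some types and not from others. Gsn, the actin-severing protein gelsolin, had 756 CPM in KO cells at 2 days, 57.5 CPM in KO naive cells, 47.8 CPM in TiCY naive cells and 420, 119, 69.2 and 194 CPM in WT pA, pB, pD and pE, so it spread widely within qNSC2. It had 7.14 to 39.7 CPM in qNSC1, 16.2 to 302 CPM in vSVZ astrocytes, at most 50.6 CPM in aNSC, TAP and neuroblasts, and 516 to 918 CPM in oligodendrocytes, above most qNSC2 sums. Gfap, the glial intermediate filament, had 3916 CPM in KO cells at 2 days, 163 CPM in KO naive cells, 185 CPM in TiCY naive cells and 156, 366, 319 and 1208 CPM in WT pA, pB, pD and pE. It lay above qNSC1 (16.2 to 105.5 CPM), TAP and neuroblasts (at most 37.5 CPM), and overlapped vSVZ astrocytes (34.5 to 1255 CPM) and aNSC (7.51 to 2236 CPM). Ccnd2, cyclin D2, which drives entry into the cell cycle, had 768 CPM in KO cells at 2 days, 693 CPM in KO naive cells, 932 CPM in TiCY naive cells and 183, 276, 1871 and 446 CPM in WT pA, pB, pD and pE. All of these lay below the Ccnd2 sums of aNSC (3632 to 7111 CPM), TAP (3235 to 13230.4 CPM) and neuroblasts (2432 to 9132 CPM), and in the KO and TiCY arms above those of vSVZ astrocytes (105 to 117 CPM). The WT qNSC2 sums of Ccnd2 overlapped those of qNSC1 (57.3 to 1763 CPM), with qNSC2 the higher in each of the 4 letters that held both. Gng2, a G protein gamma subunit, had 14.4 CPM (WT pD) to 205 CPM (WT pB) in qNSC2, above qNSC1 (0.419 to 2.33 CPM) and vSVZ astrocytes (0.0576 to 6.68 CPM). It was higher still in neuroblasts, at 163 to 1100 CPM, and it overlapped aNSC (9.81 to 73.6 CPM) and TAP (24.7 to 374 CPM). Gng2 thus marks qNSC2 against the glial neighbours only.

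**Figure D1:**
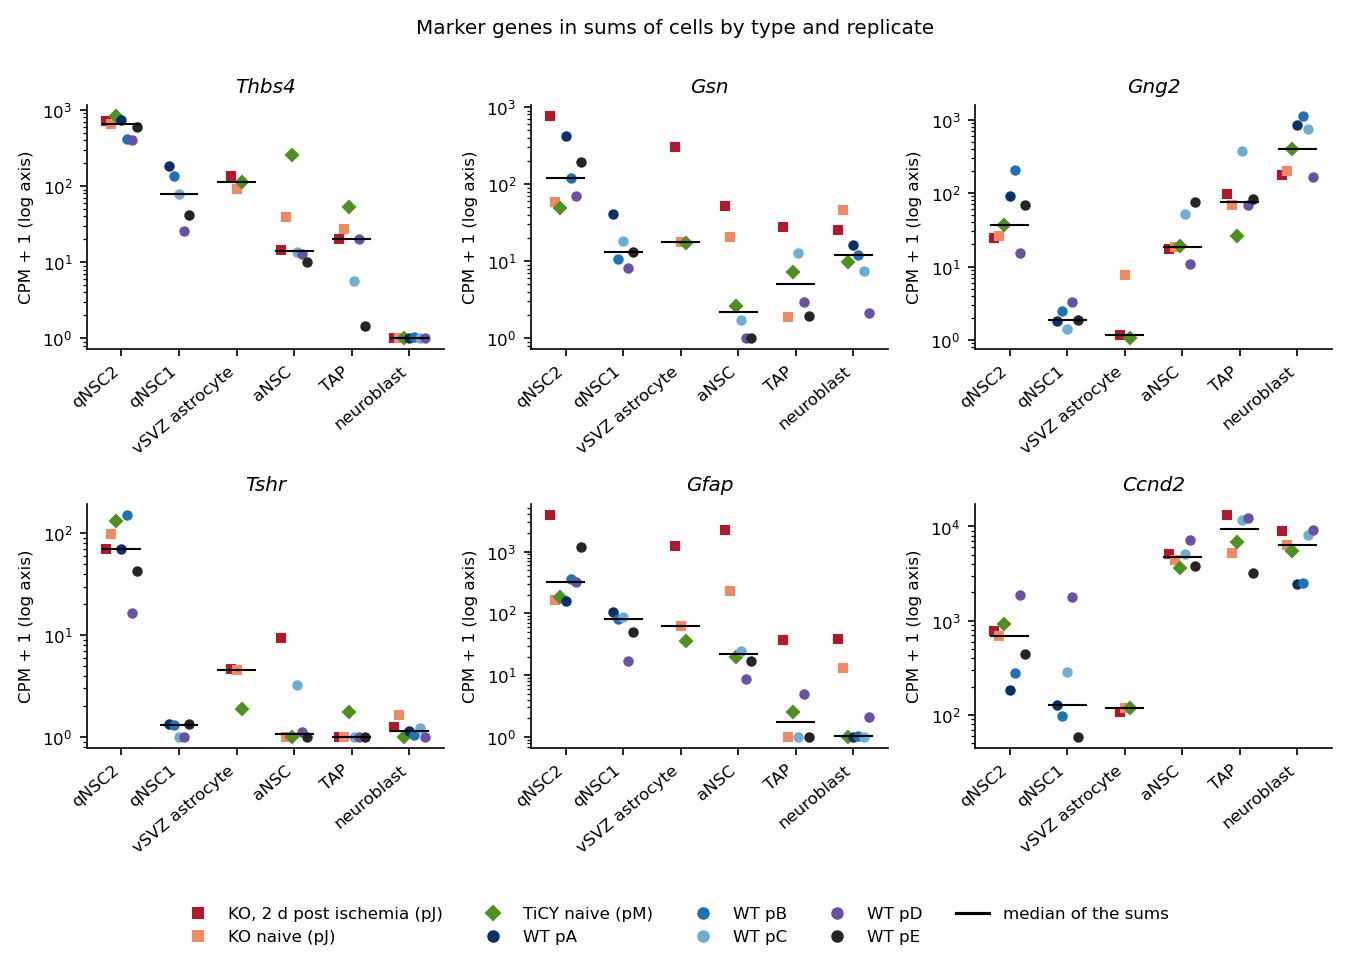
Level of the 6 qNSC2 markers (CPM of summed cells plus 1, log scale) by cell type, 1 point per letter and treatment, with the arms coloured and a line at the median of the sums. Thbs4 and Tshr are the markers whose qNSC2 points lie above every point of the other types; Gng2 peaks in neuroblasts, and Ccnd2 in aNSC, TAP and neuroblasts.

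Cell by cell, the same pattern held at matched depth. After each cell was thinned to 20000 counts, Thbs4 had at least 1 count in 72.6% of 179 qNSC2 cells, against 21.4% of qNSC1 cells, 22.5% of vSVZ astrocytes and 0 of 165 neuroblasts, which allows a share of up to 1.82%. Tshr was caught in 26.8% of qNSC2 cells, against 0.855% of qNSC1 cells, 3.15% of astrocytes and 0 of 120 TAP, which allows up to 2.50%. These shares pool cells of several letters, and the bounds treat those cells as a single sample. The qNSC1 cells are all WT and the astrocytes all KO or TiCY, so these shares mix the library sets. Within WT pD, Thbs4 was caught in 17 of 34 qNSC2 cells and 7 of 57 qNSC1 cells. In KO naive mice it was caught in 24 of 31 qNSC2 cells and 14 of 78 astrocytes. In each letter and treatment the Thbs4 share was larger in qNSC2 than in qNSC1 or astrocytes. Pooled in the same way, at least 3 of the 6 markers were detected in 117 of 179 qNSC2 cells (65.4%). They were detected in 6.84% of qNSC1 cells, 9.46% of astrocytes, 14.5% of aNSC, 9.17% of TAP and 12.1% of neuroblasts. Within qNSC2 the share with at least 3 markers was 84.7% in KO cells at 2 days, 48.4% in KO naive cells, 59.0% in TiCY naive cells and 44.1% in WT pD. The 9 cells of WT pE all passed. From KO naive cells to KO cells at 2 days, Gfap went from 29.0% to 96.6% of cells and Gsn from 32.3% to 76.3%. Thbs4 had 77.4% and 74.6%, Tshr 25.8% and 32.2%, Ccnd2 77.4% and 84.7%, and Gng2 9.68% and 10.2%. In astrocytes of letter pJ at least 3 markers were caught in 7 of 78 naive cells and 8 of 32 cells at 2 days. The higher share at 2 days is therefore not read as a closer match to the label. In each letter and treatment, at least 3 markers were caught in a larger share of qNSC2 cells than of any other type. Because the labels may rest on these same transcriptomes, this describes the labelled cells and is no check of the label.

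Genes constant in every arm were then sought. A gene counted as constant when its level was at least 2-fold higher (or lower) in qNSC2 in each letter and treatment that held both types, on CPM with 5 added to each value, with no test. Of 18000 genes, 94 (0.522%) were constantly higher and 166 (0.922%) constantly lower than in qNSC1, and 312 (1.73%) and 244 (1.36%) than in vSVZ astrocytes. Against aNSC the counts were 268 higher (1.49%) and 213 lower (1.18%), against TAP 766 (4.26%) and 492 (2.73%), and against neuroblasts 641 (3.56%) and 290 (1.61%). Set against all 5 of these types at once, each where it could be compared, 5 genes (0.0278%) were higher and none was lower. No letter and treatment held all 5 types. qNSC1 was compared in WT pA, pB, pD and pE only, and vSVZ astrocytes in the KO and TiCY arms only. In WT, aNSC and TAP were compared in pD and pE, and neuroblasts in pA, pB and pD. Oligodendrocytes and astrocytes of the striatum and cortex were not part of this comparison. The 5 genes were Tshr, Thbs4, Pih1d2, Drc1 and Ccdc170. The first pair are among the markers; the other 3 were not.

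Drc1 encodes a subunit of the dynein regulatory complex, which governs the beating of motile cilia and flagella. It had 122 CPM in KO cells at 2 days, 31.7 CPM in KO naive cells, 89.6 CPM in TiCY naive cells and 51.9, 16.7, 107 and 62.1 CPM in WT pA, pB, pD and pE. The highest Drc1 sum elsewhere was 19.3 CPM, in TiCY naive astrocytes, and WT pB is the one qNSC2 sum below it. Pih1d2 belongs to the PIH1 family, whose members help to assemble axonemal dynein. It had 18.2 CPM in KO cells at 2 days, 17.5 CPM in KO naive cells, 24.5 CPM in TiCY naive cells and 21.0, 56.4, 80.9 and 39.0 CPM in WT pA, pB, pD and pE, and at most 12.2 CPM in any sum of the other types, so the groups did not overlap. Ccdc170, a coiled-coil protein tied to microtubules at the Golgi, had 30.1 CPM in KO cells at 2 days, 30.3 CPM in KO naive cells, 186 CPM in TiCY naive cells and 72.9, 25.5, 12.7 and 14.8 CPM in WT pA, pB, pD and pE. Its aNSC sum in TiCY naive cells was 70.1 CPM, above 5 of the 7 qNSC2 sums and below the qNSC2 sum of its own arm.

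With 1 letter and treatment left out the list can only grow, and it then held 6 (without WT pE) to 10 genes (without TiCY naive pM). At 4-fold none was left, and with 1 CPM added in place of 5 there were 6. In edgeR's quasi-likelihood tests described below, with Benjamini-Hochberg adjustment over all genes, all 5 passed against TAP and against neuroblasts, and all but Ccdc170 (adjusted p = 0.097) passed against aNSC. Tshr alone passed against qNSC1, and none of the 5 passed against astrocytes, where 3 arms could be used. In the GRCm38 annotation Tshr lies on chromosome 12 (91384563 to 91549808, plus strand), Pih1d2 on chromosome 9 (50617321 to 50625000, plus strand), Thbs4 on chromosome 13 (92751590 to 92794818, minus strand), Drc1 on chromosome 5 (30281388 to 30366695, plus strand) and Ccdc170 on chromosome 10 (4482502 to 4562231, plus strand). Tshr, Drc1 and Ccdc170 each overlap 1 other measured gene on the same strand and Pih1d2 overlaps 1 on the opposite strand, so part of their counts could belong to the partner.

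**Figure D2:**
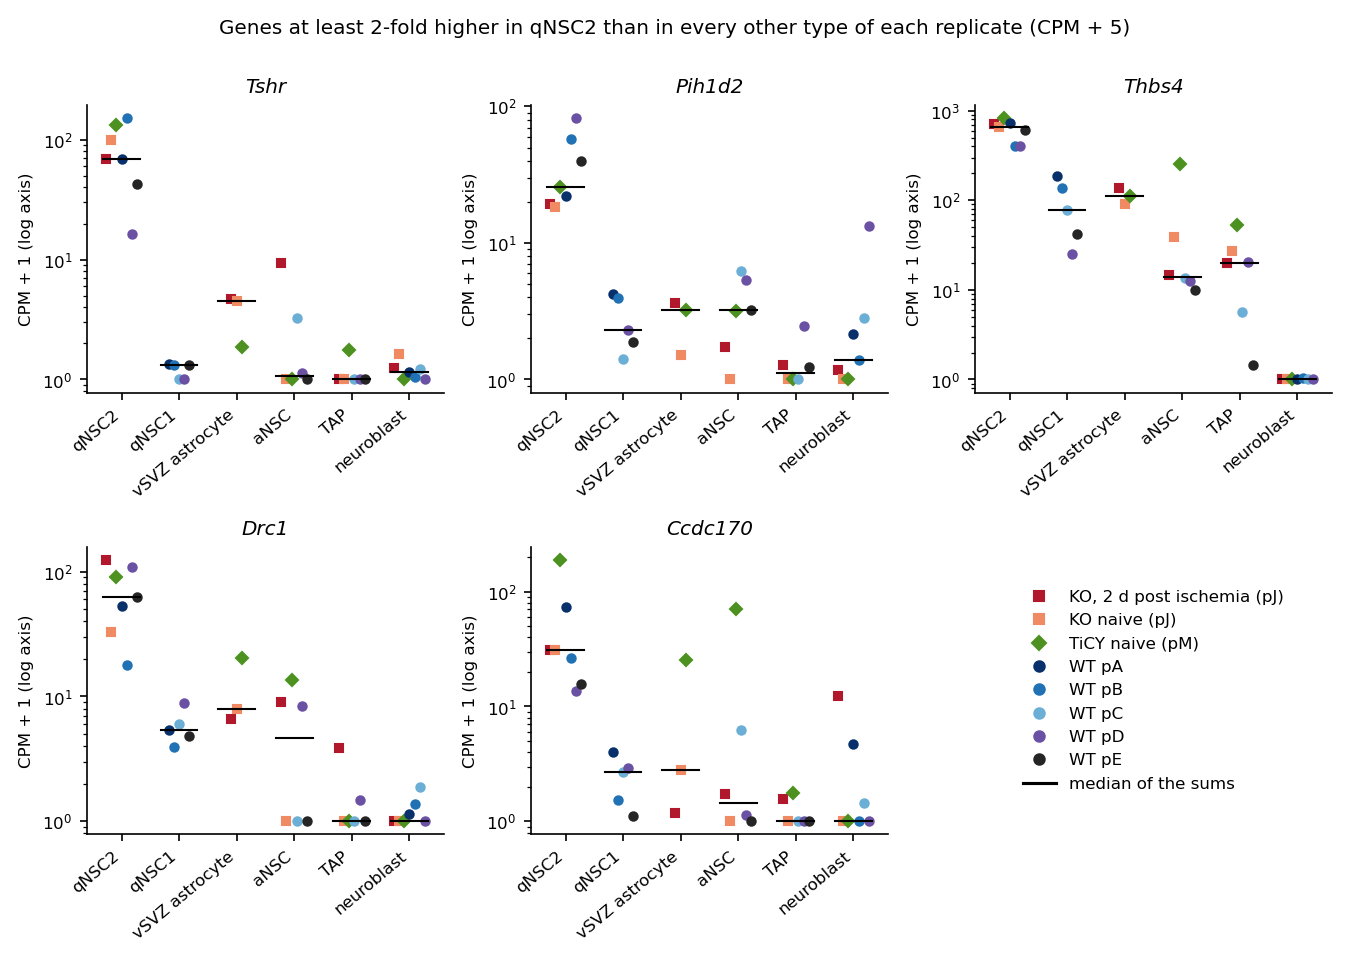
Level of the 5 constant genes (CPM of summed cells plus 1, log scale) in qNSC2 and in each other type, 1 point per letter and treatment, with a line at the median of the sums. In each letter and treatment the qNSC2 point of a gene lies at least 2-fold, with 5 CPM added, above the points of the other types present there. No letter and treatment holds all 5 other types.

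Because several of these are cilium genes, the promoters of 4 of them (250 bases before to 50 after the RefSeq start, GRCm38.p6, read 5′ to 3′ on the gene's strand) are shown with each match to the core RFX motif GTTGCC, or its reverse complement GGCAAC, in capitals. RFX factors are known regulators of ciliary genes.
Drc1 (chr5:30281143-30281442, plus strand): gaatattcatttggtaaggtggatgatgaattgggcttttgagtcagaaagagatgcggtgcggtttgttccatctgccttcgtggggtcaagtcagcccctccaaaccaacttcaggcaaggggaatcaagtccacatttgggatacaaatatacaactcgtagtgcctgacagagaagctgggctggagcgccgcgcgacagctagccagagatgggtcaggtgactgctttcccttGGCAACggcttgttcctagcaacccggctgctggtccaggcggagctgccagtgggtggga
Ccdc170, first annotated start (chr10:4482265-4482564, plus strand): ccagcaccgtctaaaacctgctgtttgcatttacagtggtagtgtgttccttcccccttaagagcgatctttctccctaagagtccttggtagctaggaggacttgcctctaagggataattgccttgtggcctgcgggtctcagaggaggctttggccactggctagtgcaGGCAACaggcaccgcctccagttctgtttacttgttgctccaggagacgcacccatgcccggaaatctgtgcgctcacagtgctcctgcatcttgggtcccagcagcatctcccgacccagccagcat
Pih1d2 (chr9:50617071-50617370, plus strand): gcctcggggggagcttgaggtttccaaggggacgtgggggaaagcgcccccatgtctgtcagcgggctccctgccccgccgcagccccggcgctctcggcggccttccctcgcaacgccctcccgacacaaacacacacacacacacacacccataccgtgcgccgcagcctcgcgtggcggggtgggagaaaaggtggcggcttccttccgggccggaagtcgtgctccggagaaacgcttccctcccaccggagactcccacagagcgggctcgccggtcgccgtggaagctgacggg
Thbs4 (chr13:92794769-92795068, minus strand): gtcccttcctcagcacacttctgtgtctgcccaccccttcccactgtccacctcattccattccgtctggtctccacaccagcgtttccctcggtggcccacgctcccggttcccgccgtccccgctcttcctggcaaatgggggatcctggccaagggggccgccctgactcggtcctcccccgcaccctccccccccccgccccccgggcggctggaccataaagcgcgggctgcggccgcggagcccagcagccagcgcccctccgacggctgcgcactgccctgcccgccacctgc
Drc1 and the first start of Ccdc170 hold 1 match each; Pih1d2, Thbs4 and the second annotated start of Ccdc170 hold none. The motif is present in 4111 of 32851 RefSeq promoters of this length (12.51%), so a match is a description of the letters and not of binding.

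Ependymal cells, which line the ventricle beside the stem cells, carry motile cilia, and a list of 12 ependymal markers was summed in each group. The sum was 224 CPM in KO cells at 2 days, 159 CPM in KO naive cells, 64.4 CPM in TiCY naive cells and 58.5, 115, 149 and 200 CPM in WT pA, pB, pD and pE. It was 4.35 to 68.1 CPM in qNSC1, 30.1 to 65.9 CPM in astrocytes, 2.56 to 77.2 CPM in aNSC, 2.91 to 18.0 CPM in TAP and 1.58 to 25.5 CPM in neuroblasts. The qNSC2 sums of WT pA and TiCY naive pM thus overlap qNSC1, astrocytes and aNSC and the others do not. Foxj1, the master regulator of motile ciliogenesis, had 5.85 to 73.1 CPM in qNSC2, and Rsph1, a radial spoke protein, 0 to 58.3 CPM. Between 1 (KO cells at 2 days) and 6 (WT pA) of the 12 genes were at 0 in a qNSC2 sum. The part of ependymal RNA in the cilium genes above was not tested. Of markers of other cells, microglia genes summed to 0.418 to 47.2 CPM in the 7 qNSC2 sums, and oligodendrocyte genes to 190 to 622 CPM, against 72315 CPM or more in cells labelled oligodendrocyte. Pericyte genes summed to 38.8 to 173 CPM in qNSC2 and 70.1 to 144 CPM in qNSC1.

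vSVZ astrocytes were the closest neighbour in the KO and TiCY arms, where 3 sums of each type could be compared. The qNSC2 cells carried more of Ccnd2, the amino acid transporter Slc38a1, nestin (Nes) and 10 further transcripts, and less of the AMPA receptor subunit Gria2. By edgeR's quasi-likelihood test with Benjamini-Hochberg adjustment, 13 genes were higher in qNSC2 (0.0829% of 15677 tested) and 1 was lower (0.00638%). Ccnd2, whose sums are given above, had the lowest adjusted p (log2 fold change 2.60 ± 0.27, SE; adjusted p = 0.0013). The amino acid transporter Slc38a1 had 193, 223 and 175 CPM in qNSC2 of KO mice at 2 days, KO naive and TiCY naive mice, against 21.6, 13.9 and 7.77 CPM in astrocytes of the same arms (3.68 ± 0.49, adjusted p = 0.012). Tox3, a nuclear HMG-box protein, had 93.0, 99.6 and 109 CPM in qNSC2 and 14.4, 8.20 and 4.43 CPM in astrocytes (3.39 ± 0.49, adjusted p = 0.023). For these 3 genes the lowest qNSC2 sum lies several-fold above the highest astrocyte sum, and the qNSC2 sums are nearly level over the arms.

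Map1b, a microtubule-associated protein of growing neurites, had 117, 10.6 and 62.0 CPM in qNSC2 of KO mice at 2 days, KO naive and TiCY naive mice, against 1.76, 0.507 and 0.461 CPM in astrocytes (5.81 ± 0.70, adjusted p = 0.0047). Nes, the stem cell filament nestin, had 163, 30.3 and 8.68 CPM in qNSC2 and 3.34, 0.507 and 0.806 CPM in astrocytes (4.89 ± 0.85, adjusted p = 0.047). Bcat1, a branched-chain amino acid transaminase, ran the other way over the arms, with 9.25, 28.2 and 85.8 CPM in qNSC2, against 0.527, 0.254 and 0.173 CPM in astrocytes. No group overlapped for any of the 3, and each varied several-fold among the qNSC2 arms. Mycn, a growth-promoting transcription factor, had 19.2, 7.11 and 13.6 CPM in qNSC2 and 0.176, 0.0845 and 0.0576 CPM in astrocytes, and Mex3a, an RNA-binding protein of slow-cycling stem cells, had 46.3, 44.9 and 41.0 CPM against 9.14, 3.97 and 5.30 CPM in astrocytes. Sept3, a neuronal septin, Ptma, the nuclear protein prothymosin alpha, and Stmn1, which destabilises microtubules in dividing and migrating cells, also passed, as did Pcgf2, a Polycomb group protein, and Serinc2, of the serine incorporator family (adjusted p = 0.042 each). Gria2 fell: it had 89.4, 66.4 and 46.7 CPM in qNSC2, against 426, 550 and 474 CPM in astrocytes (-2.99 ± 0.48, adjusted p = 0.042). The count of 14 rests on few sums: without TiCY naive pM no gene passed (593 at an unadjusted p under 0.05), without KO naive pJ 4 passed and without KO pJ at 2 days 3 passed, while DESeq2 called 204 with all arms.

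Whole lists moved less clearly than these genes against astrocytes, where the median log2 fold change over all genes was -0.08. Of 18 astrocyte markers, none passed edgeR's test (9 at an unadjusted p under 0.05, and 2 by DESeq2, all lower), and 0 of 18 had a fold change above 0, with a median of -1.59. Aqp4, the astrocyte water channel, had 81.5, 103 and 89.7 CPM in qNSC2 of KO mice at 2 days, KO naive and TiCY naive mice, against 327, 688 and 711 CPM in astrocytes (adjusted p = 0.45). Immediate early genes, which are transcribed within minutes of a stimulus or of tissue dissociation, were above 0 for 19 of 20 (median 3.95), with none called by edgeR, 11 at an unadjusted p under 0.05 and 8 called by DESeq2. Fos had 1074, 281 and 828 CPM in qNSC2, against 55.7, 23.5 and 4.66 CPM in astrocytes (4.19 ± 1.20, adjusted p = 0.36). All 30 ribosomal protein genes were above 0 (median 0.89; none called, 24 at an unadjusted p under 0.05, and 2 called by DESeq2). The groups of Aqp4 and Fos did not overlap, but neither gene passed.

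qNSC1 cells could be compared with qNSC2 in WT only, and there qNSC2 had lower levels of a few glial genes and higher levels of 3 others. edgeR's quasi-likelihood test with Benjamini-Hochberg adjustment called 3 genes higher and 3 lower (0.0208% of 14391 each). Tshr had 68.3, 150, 15.4 and 42.0 CPM in qNSC2 of pA, pB, pD and pE, against 0.343, 0.318, 0 and 0.326 CPM in qNSC1 of the same letters (log2 fold change 8.03 ± 1.34, adjusted p = 0.030). Gng2 had 90.7, 205, 14.4 and 67.3 CPM in qNSC2, against 0.801, 1.48, 2.33 and 0.870 CPM in qNSC1 (6.06 ± 0.86, adjusted p = 0.011). Igfbp5, a secreted binding protein of insulin-like growth factors, had 3716, 1458, 929.9 and 3577 CPM in qNSC2, against 397, 197, 194 and 315 CPM in qNSC1 (3.17 ± 0.56, adjusted p = 0.034). None of the 3 overlapped between the types.

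On the lower side, Il33, an alarmin cytokine of glia, had no count in the 4 WT qNSC2 sums, against 207, 115, 24.9 and 123 CPM in qNSC1 of pA, pB, pD and pE. It was at least 573-fold lower than in the 5 qNSC1 sums, pC included, taking 3 counts over the 4 qNSC2 sums as the floor (adjusted p = 0.024). Kcnj16, an inward-rectifier potassium channel of astrocytes, had 0.657, 0.418, 0.745 and 0.343 CPM in qNSC2, against 133, 43.2, 49.0 and 141 CPM in qNSC1 (-7.40 ± 1.13, adjusted p = 0.016). Eps8, a regulator of actin capping downstream of the EGF receptor, had 0, 0.836, 0 and 0 CPM in qNSC2, against 109, 214, 34.1 and 112 CPM in qNSC1 (adjusted p = 0.024). All 3 stood near or at 0 in qNSC2 and well above it in qNSC1. With the letter as a block 26 genes passed; no gene passed edgeR's test without pA, without pC or without pE (839, 1083 and 1218 at an unadjusted p under 0.05), 1 passed without pB and 19 without pD, and DESeq2 called 264 with all letters.

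The genes of one contrast can be read in samples that the other did not use. This is no independent support, because the labels may rest on the transcriptomes of all arms and Tshr, Gng2 and Ccnd2 are among the markers. The share of all genes with a common direction in both contrasts was not computed. The 6 genes called in WT against qNSC1 all had the same direction against astrocytes in each of the 3 KO and TiCY arms, though none passed there. Il33, for example, averaged 3.22 ± 1.49 CPM in qNSC2 and 177 ± 69.2 CPM in astrocytes of those arms (SD, n = 3 each; log2 fold change -6.07 ± 1.12, adjusted p = 0.071). Conversely, 13 of the 13 genes called against astrocytes that could be tested in WT had the same fitted direction against qNSC1, and 9 of them had it in each of the 4 WT letters; Map1b, Slc38a1 and Mex3a had it in 3 and Bcat1 in 2. Gria2 averaged 127 ± 74.7 CPM in the 4 WT qNSC2 sums and 772 ± 342 CPM in the 5 WT qNSC1 sums, pC included (SD). Its log2 fold change in edgeR's test was -2.67 ± 0.76 (adjusted p = 0.27), and that of Mycn was 5.21 (adjusted p = 0.061). None of these passed either.

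Against qNSC1 the median over all genes was -0.03. One of 18 astrocyte markers, Kcnj16, was called lower, and 0 of 18 had a fold change above 0 (median -1.66). Aqp4 had 72.9, 32.6, 74.2 and 420 CPM in qNSC2 of WT pA, pB, pD and pE, against 2209.9, 1911, 256 and 2739 CPM in qNSC1. Immediate early genes were above 0 for 15 of 17 (median 1.94; none called by edgeR or by DESeq2, 5 at an unadjusted p under 0.05), and ependymal genes for 6 of 8 (median 5.60; none called by edgeR, 5 at an unadjusted p under 0.05, and 4 called by DESeq2). The medians of these named lists thus had the same sign as against astrocytes, where the ependymal one was 2.39. Some other lists changed sign. The interferon response median was -0.30 against qNSC1 and 0.51 against astrocytes, and that of mature neuron genes -1.32 and 0.78.

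Activated stem cells are the next state of the lineage, and here every arm contributed. qNSC2 cells carried more glial, lipid and matrix transcripts than aNSC and less of the G1, S phase and ribosomal ones. edgeR's quasi-likelihood test with Benjamini-Hochberg adjustment called 280 genes higher (1.56% of 18000) and 209 lower (1.16%) in qNSC2, from 7 qNSC2 and 6 aNSC sums. Nat8, an acetyltransferase, averaged 38.7 ± 16.7 CPM in qNSC2 and 0.0212 ± 0.0520 CPM in aNSC (SD, n = 7 and 6; adjusted p = 0.00073). Pacsin1, a membrane-bending endocytic protein, averaged 34.8 ± 23.2 CPM in qNSC2 and 0.0410 ± 0.100 CPM in aNSC (adjusted p = 0.00046). Ppp1r1b, the phosphatase inhibitor DARPP-32, averaged 71.4 ± 38.5 CPM in qNSC2 and 0.212 ± 0.520 CPM in aNSC (adjusted p = 0.0042). Ifit3b, an interferon-induced gene, had 21.6, 77.6 and 15.8 CPM in qNSC2 of KO mice at 2 days, KO naive and TiCY naive mice and 67.0, 25.9, 14.6 and 0.858 CPM in WT pA, pB, pD and pE. It had no count in the 6 aNSC sums, and so was at least 170-fold higher in qNSC2, taking 3 counts over those sums as the floor (adjusted p = 0.0052). Each of these genes was higher in qNSC2 in the 5 letters and treatments that held both types.

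The 6 markers followed the pattern seen above: against aNSC, Tshr (6.35 ± 1.17, adjusted p = 0.0025), Gsn (5.72 ± 1.06, adjusted p = 0.0029), Thbs4 (4.67 ± 0.70, adjusted p = 0.00054) and Gfap (3.76 ± 1.01, adjusted p = 0.037) were higher in qNSC2, and Ccnd2 was lower (-2.57 ± 0.64, adjusted p = 0.024). Gng2 did not pass (0.98 ± 0.65, adjusted p = 0.43).

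By lists, with a median over all genes of 0.26, 6 of 18 astrocyte markers rose against aNSC and none fell (median 2.69), among them the gap junction protein Gja1 (2.98 ± 0.66) and the serine transporter Slc7a10 (4.37 ± 0.99). Of 21 quiescence genes 3 rose, including Clu, the secreted chaperone clusterin, at 3752 ± 1363 CPM in qNSC2 and 176 ± 118 CPM in aNSC (4.44 ± 0.99, adjusted p = 0.012), and Id4, a BMP target that holds stem cells quiescent (2.37 ± 0.48, adjusted p = 0.0052). Of 23 fatty acid oxidation genes 3 rose, with the acyl-CoA synthetases Acsl3 (2.62 ± 0.58) and Acsl6 (2.21 ± 0.49). Of 20 matrix and adhesion genes 3 rose, and of 18 lysosome genes 1 did: the protease Ctsb had 518 ± 83.6 CPM in qNSC2 and 169 ± 37.6 CPM in aNSC (1.67 ± 0.33, adjusted p = 0.0042). Ctsb was narrow in both types, its 7 qNSC2 sums spanning 389 to 611 CPM and its 6 aNSC sums 126 to 215 CPM.

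Lists that were lower in qNSC2 than in aNSC belong to growth and the cycle. Of 20 S phase genes 13 fell and none rose (median -3.25). Rrm2, the ribonucleotide reductase subunit that supplies deoxynucleotides, had 0 to 7.94 CPM in qNSC2 and 6.88 to 313 CPM in aNSC (-6.08 ± 1.37, adjusted p = 0.012), and Cdc6, which licenses replication origins, fell by 6.85 ± 1.64 on the log2 scale. Of 16 activated stem cell genes 7 fell (median -2.96), of 19 G1 genes 6 fell, E2f1 among them (-5.26 ± 1.33), and of 30 ribosomal protein genes 10 fell (median -1.87), such as Rps6 (-2.18 ± 0.53) and Rplp0 (-2.16 ± 0.53). The 30 ribosomal protein genes varied widely within qNSC2 too: they summed to 21891 CPM in KO cells at 2 days, 10625 CPM in KO naive cells, 14337 CPM in TiCY naive cells and 2383, 2401, 20503 and 5021 CPM in WT pA, pB, pD and pE. Of 20 mitosis genes none passed edgeR's test (median -2.06; 10 at an unadjusted p under 0.05 and 4 by DESeq2, all lower). Of 16 Notch genes 4 fell, including the Notch ligand Dll4 and the Fringe glycosyltransferase Mfng (-6.37 ± 1.28). Slit1, a guidance ligand, had 0 to 4.22 CPM in qNSC2 and 45.6 to 301 CPM in aNSC (-7.27 ± 1.23, adjusted p = 0.0011), with no overlap in any arm. The count of 489 moves with the libraries: the letter as a block gave 842 (403 higher and 439 lower, so that the lower genes then outnumbered the higher ones), leaving out WT pE gave 126 and WT pD 824, and WT alone gave 15.

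TAP divide rapidly, and qNSC2 differed from them in many more genes: 1603 higher (8.91% of 18000) and 1105 lower (6.14%) by edgeR's quasi-likelihood test with Benjamini-Hochberg adjustment, with a median over all genes of 0.32. All 20 mitosis genes fell (median -7.19) and 19 of 20 S phase genes did (median -3.91). Mki67, the proliferation antigen, had 3.64 CPM in qNSC2 of KO mice at 2 days, 0 in KO naive mice, 54.3 CPM in TiCY naive mice and 1.31, 0, 71.7 and 0 CPM in WT pA, pB, pD and pE, against 709 to 3181 CPM in TAP (-8.00 ± 1.84, adjusted p = 0.0030). The qNSC2 sums of WT pD and of TiCY naive mice are the high ones and still lie far below the lowest TAP sum.

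Of 18 astrocyte markers 16 rose against TAP (median 4.15), of 21 quiescence genes 12 rose and 2 fell (Nfix, a nuclear factor of quiescence, and Cdkn1a, a cell cycle inhibitor), of 23 fatty acid oxidation genes 10 rose, of 18 lysosome genes 11 rose, and of 20 matrix genes 11 rose. Hif3a, a hypoxia-inducible factor subunit that can act as a repressor of the others, had 167 CPM in qNSC2 of KO mice at 2 days, 100 CPM in KO naive mice, 460 CPM in TiCY naive mice and 227, 47.7, 8.93 and 33.5 CPM in WT pA, pB, pD and pE. It had no count in the 6 TAP sums, and so was at least 1087-fold higher in qNSC2, taking 3 counts over those sums as the floor (adjusted p = 1.4e-06). Fgf1, a fibroblast growth factor, was at least 210-fold higher (12.2 to 51.6 CPM in qNSC2, adjusted p = 2.2e-06), and Ppara, the nuclear receptor for fatty acids, at least 275-fold. Clu (6.81 ± 1.11), the glycolytic enzyme Aldoc (5.81 ± 1.16) and the secreted Wnt modulator Dkk3 (4.18 ± 0.83) were abundant in qNSC2 and rose too. The growth factor receptors Fgfr1 (3.00 ± 0.72) and Fgfr3 (3.68 ± 0.92) were higher in qNSC2 than in TAP, while 18 of 20 neuroblast genes fell (median -4.93), Dlx5 being at least 134-fold lower, and 19 of 30 ribosomal protein genes fell.

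Against neuroblasts, 2170 genes were higher (12.1% of 18000) and 1251 lower (6.95%) in qNSC2 by the same test, with a median over all genes of 0.18. Thbs4 averaged 619 ± 162 CPM in qNSC2 (SD, n = 7), and neuroblasts had it in 1 of their 7 sums, at 0.0433 CPM (adjusted p = 2.7e-11, higher in 6 of 6 letters and treatments that held both types). Of 18 astrocyte markers 16 rose (median 5.55), of 23 fatty acid oxidation genes 15, of 18 lysosome genes 12, of 19 ion and serine transport genes 16 and of 21 quiescence genes 15, while Nfix and the cell cycle inhibitor Cdkn1c fell. Signalling lists rose as well: 9 of 16 Notch genes, with the receptor Notch3 (adjusted p = 7.5e-06), 8 of 17 BMP genes, with the receptor Bmpr1b (9.68 ± 1.02, 155 ± 95.9 CPM in qNSC2 and 0.353 ± 0.826 CPM in neuroblasts), and 10 of 18 Wnt genes, 1 gene falling in the Notch list and 1 in the Wnt list. Ependymal genes rose for 7 of 11 (median 7.14), Rsph1 being at least 531-fold higher. Of 26 interferon response genes 6 rose, and of the interferon receptor genes the kinase Jak1 rose (2.71 ± 0.56) while Ifnar2 fell (-2.78 ± 0.82; 0 to 49.0 CPM in qNSC2 and 16.4 to 205 CPM in neuroblasts). Of 20 neuroblast genes 18 fell (median -6.71), as did the synaptic protein Snap25 (-6.19 ± 1.18) and the neuronal stathmin Stmn4 (-12.03 ± 1.71).

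**Figure D3:**
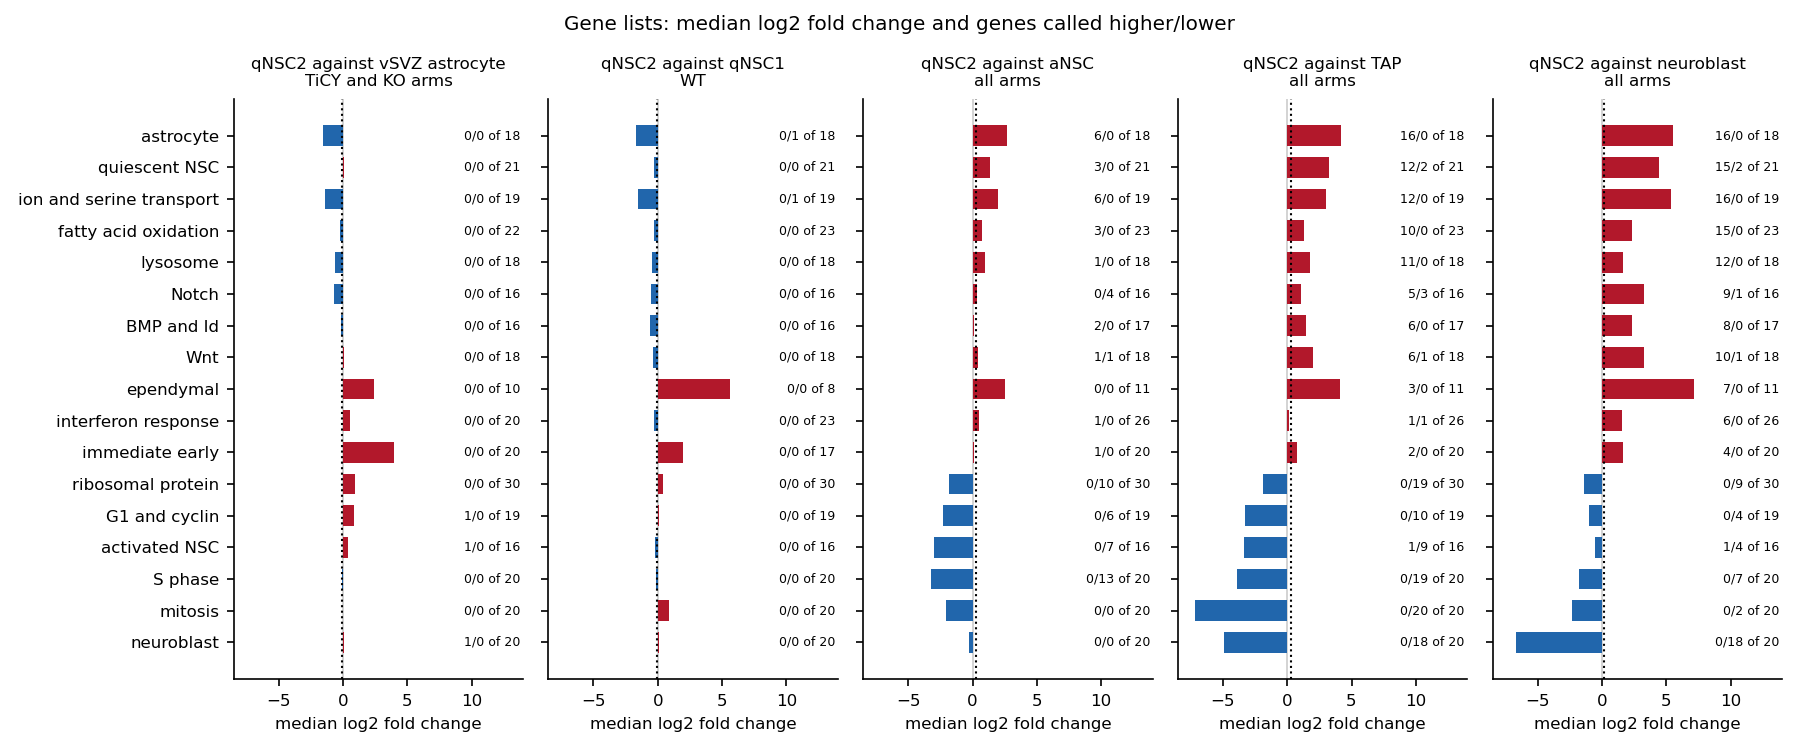
Median log2 fold change of each gene list (bars) in qNSC2 against each other type, with the number of its genes called higher and lower by edgeR's quasi-likelihood test written at the right and a dotted line at the median over all genes. The astrocyte list lies below 0 against astrocytes and qNSC1 and above 0 against aNSC, TAP and neuroblasts, and the mitosis list is called against TAP (20 of 20 lower) but has no called member against aNSC.

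Cell cycle genes were also counted cell by cell at 20000 counts. At least 5 of the mitosis genes were detected in 9 of 34 qNSC2 cells of WT pD (26.5%), and in 0 of 3, 0 of 3 and 0 of 9 cells of WT pA, pB and pE; with so few cells, 0 of 9 allows a share of up to 33.6% (exact 95% binomial interval). In the other library set, which is not set against WT, it was 0 of 59, 0 of 31 and 0 of 39 cells of KO mice at 2 days, KO naive and TiCY naive mice (upper bounds 6.06%, 11.2% and 9.03%; counting error only). qNSC1 of the same letter had 9 of 57 such cells (15.8%), and TAP of that letter 72.5%. At least 5 S phase genes were detected in 6 of 34 cells of WT pD, 2 of 3 of pA, 1 of 3 of pB and 0 of 9 of pE, and in 1 of 59 cells of KO mice at 2 days, 0 of 31 of KO naive and 1 of 39 of TiCY naive mice. Ccnd2 and Mki67 were highest in WT pD among the 4 WT qNSC2 sums. Among the qNSC1 sums Ccnd2 was highest in pD too, at 1763 CPM.

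The median number of genes detected per cell at 20000 counts, averaged over the 7 letters and treatments, was 3850 in qNSC2 and 3600 in its quiescent neighbour of the same letter (qNSC1 or vSVZ astrocytes), a mean difference of 251, higher in qNSC2 in 7 of 7 pairs at this depth. The exact two-sided sign-flip permutation test gave p = 0.0156, the smallest that 7 pairs allow, and 0.0938 after Benjamini-Hochberg adjustment over 6 such comparisons. At 40000 counts per cell it was higher in 5 of the 7 pairs and lower in 1 (mean difference 240, exact p = 0.0625), so the difference rests in part on the depth chosen. Against aNSC it was 3459 in qNSC2 and 3976 in aNSC (lower in 5 of 5 pairs) and against TAP 3459 in qNSC2 and 4113 in TAP (lower in 5 of 5), where 5 pairs cannot go below an exact p of 0.0625. Against neuroblasts it was 3712 in qNSC2 and 3147 in neuroblasts (higher in 5 of 6 pairs). qNSC2 thus lay between its quiescent neighbours and the cycling types, with no adjusted p under 0.05.

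**Figure D4:**
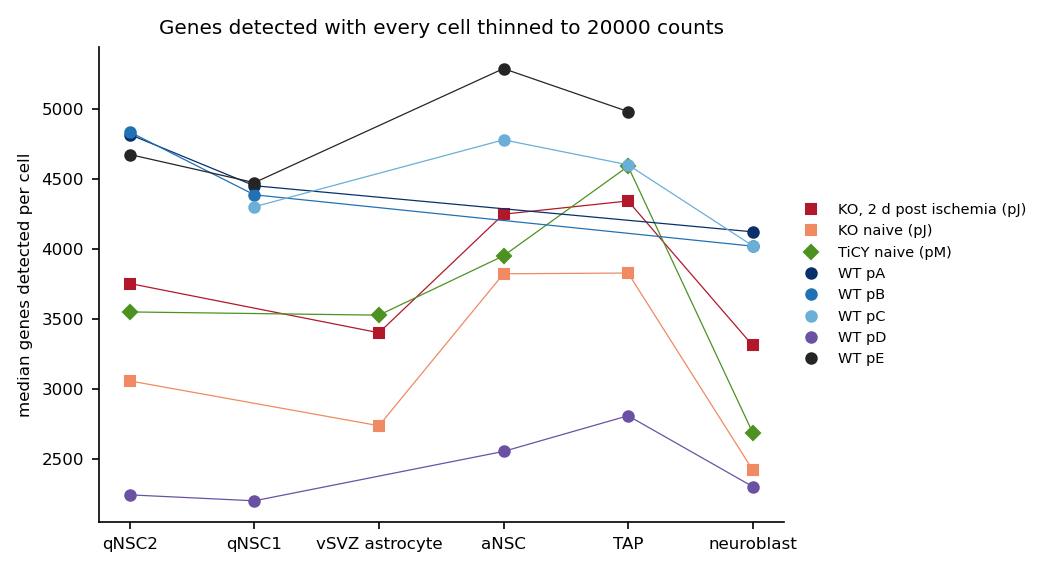
Genes detected per cell after thinning to 20000 counts (median per letter and treatment) in qNSC2 and each other type, with the types of one letter and treatment joined by a line. The qNSC2 points lie above qNSC1 or vSVZ astrocytes in 7 of 7 pairs and below aNSC and TAP in 5 of 5 pairs each.

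Within qNSC2, KO cells at 2 days after ischemia were set beside KO naive cells. By the labels the cells at 2 days are from TiCY-IFN(A/G)R KO mice and the naive ones from IFN(A/G)R KO mice, so the TiCY alleles, and tamoxifen where it was given, cannot be told apart from ischemia. Both are 1 sum, so there is no test, and intervals below are exact Poisson ones that cover counting error only. Of 11433 genes with at least 10 CPM in either sum, 18.7% were at least 2-fold higher and 21.2% at least 2-fold lower at 2 days, with a median log2 ratio of -0.07; gene differences have to be read against that large share. The libraries differ along this contrast too: Malat1 took 0.216% of counts at 2 days and 1.17% in KO naive qNSC2, and mitochondrial transcripts 0.268% at 2 days and 0.0755% in KO naive qNSC2; their part in the differences was not tested. Of 12 reactive astrocyte genes that reached 10 CPM, 10 were at least 2-fold higher (median 1.92). Gfap had 3916 CPM in KO cells at 2 days and 163 CPM in KO naive cells, 24.1-fold (95% interval 22.5 to 25.9). Vim, the intermediate filament vimentin, had 2071 CPM in KO cells at 2 days and 200 CPM in KO naive cells, 10.4-fold. Gsn was 13.2-fold higher at 2 days. Serpina3n, a secreted protease inhibitor of reactive astrocytes, had 232 CPM in KO cells at 2 days and no count in KO naive cells (at least 380-fold), and the oncostatin M receptor Osmr had 72.6 CPM at 2 days and no count in KO naive cells (at least 119-fold). A single cell held 9.51% of the Gfap counts and 19.8% of the Vim counts at 2 days, but 48.2% of those of Osmr.

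Other lists at 2 days moved in part. Of 15 immediate early genes 10 were at least 2-fold higher (median 1.32), with Fos at 1074 CPM in KO cells at 2 days and 281 CPM in KO naive cells and Jun at 1178 CPM in KO cells at 2 days and 223 CPM in KO naive cells. Of 10 activated stem cell genes 6 were higher (median 1.01). Egfr, the growth factor receptor of activated stem cells, had 98.3 CPM in KO cells at 2 days and 32.5 CPM in KO naive cells. TiCY naive qNSC2 stood above both, at 142 CPM, the highest of the 7 qNSC2 sums. Of 30 ribosomal protein genes 14 were higher (median 0.94), and Lamb2, a laminin chain, had 625 CPM at 2 days and 164 CPM in KO naive cells. In the other direction, Sox9, a glial and stem cell transcription factor, had 130 CPM in KO cells at 2 days and 841 CPM in KO naive cells (0.155-fold). The Wnt receptor Fzd1 had 30.2 CPM at 2 days and 243 CPM in KO naive cells, and the viral RNA sensor Ifih1 had 5.09 CPM at 2 days and 180 CPM in KO naive cells. Thbs4 (1.08-fold), Ccnd2 (1.11-fold), Gng2 (0.935-fold) and Tshr (0.70-fold) stayed within 2-fold.

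The reactive genes were also higher at 2 days in the vSVZ astrocytes of letter pJ. Of 8 reactive genes that reached 10 CPM there, 7 were at least 2-fold higher at 2 days, against 17.9% higher and 20.1% lower of 10884 genes. Gfap had 1255 CPM in astrocytes of KO mice at 2 days and 61.4 CPM in those of KO naive mice, and Vim had 584 CPM at 2 days and 34.2 CPM in naive astrocytes. Sox9 was lower there too, with 61.2 CPM at 2 days and 619 CPM in naive astrocytes. Egfr ran the other way in astrocytes, with 60.6 CPM at 2 days and 113 CPM in KO naive mice (0.54-fold), against 3.02-fold in qNSC2; this difference between the types was not tested.

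**Figure D5:**
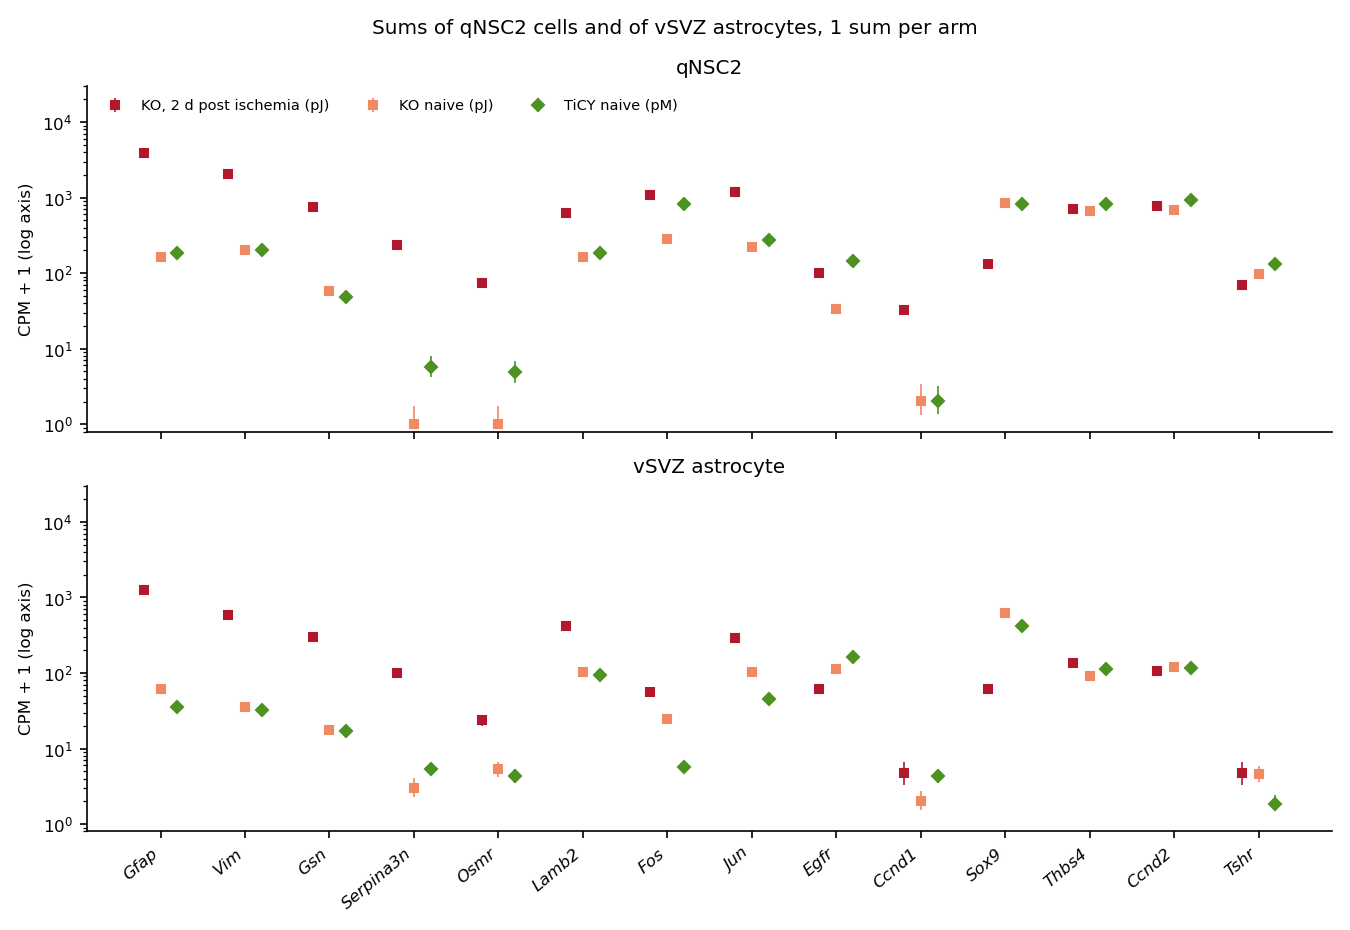
Level of named genes (CPM plus 1, log scale, with exact 95% Poisson intervals of counting error, mostly smaller than the symbols) in the sums of qNSC2 and of vSVZ astrocytes from KO mice at 2 days after ischemia, KO naive and TiCY naive mice. Gfap, Vim and Gsn are high and Sox9 is low at 2 days in both types, while Thbs4 and Ccnd2 of qNSC2 are nearly level.

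The 5 TiCY cells at 2 days after ischemia carried the qNSC2 label with a different profile. Their sum had 5281 CPM of Gfap, 2834 CPM of Vim and 276 CPM of Serpina3n, against 185, 201 and 4.77 CPM in TiCY naive qNSC2. Thbs4 had 51.2 CPM in these 5 cells, below every other qNSC2 sum, Tshr had no count, and Mki67 had 138 CPM. Their ribosomal protein genes summed to 57248 CPM, against 14337 CPM in TiCY naive qNSC2. The 1 cell at 21 days had 131 CPM of Thbs4, 89.2 CPM of Tshr and 9.39 CPM of Gfap. The qNSC2 label is therefore little borne out by Thbs4 and Tshr in the 5 cells at 2 days, and these 6 cells enter no comparison of types.

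KO naive and TiCY naive qNSC2 were also set side by side, as 1 sum each, letter pJ and letter pM. Of the targeted genes, Ifnar1 had 16 CPM in KO qNSC2 at 2 days, 8.74 CPM in KO naive qNSC2 and 61.3 CPM in TiCY naive qNSC2, and Ifngr1 had 1.14 CPM in KO qNSC2 at 2 days, 0.406 CPM in KO naive and 10.7 CPM in TiCY naive qNSC2, so both were lower, and not at 0, in KO. Of 11465 genes with at least 10 CPM in either sum, 17.2% were at least 2-fold higher and 18.4% lower in KO naive qNSC2 (median -0.02). The 6 markers all stayed within 2-fold. Of 15 interferon response genes 5 were higher and 6 lower (median -0.83), so the list had no common direction: Ifih1 had 180 CPM in KO naive and 19.7 CPM in TiCY naive qNSC2, and Ifit2 had 45.1 CPM in KO naive and 2.72 CPM in TiCY naive qNSC2. Notch3 had 117 CPM in KO naive and 9.02 CPM in TiCY naive qNSC2, and Hey1, a target gene of Notch signalling, had 17.3 CPM in KO naive and 1.70 CPM in TiCY naive qNSC2. Of 11 G1 and cyclin genes 1 was at least 2-fold higher and 4 were lower (median -0.54). Among them, the cyclin-dependent kinase inhibitor Cdkn1a had 8.53 CPM in KO naive and 131 CPM in TiCY naive qNSC2, and Cdkn1b 29.7 CPM in KO naive and 163 CPM in TiCY naive qNSC2. Egfr had 32.5 CPM in KO naive and 142 CPM in TiCY naive qNSC2. With 1 letter per arm, genotype and mouse cannot be told apart.

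As a share of the labelled vSVZ cells of its letter and treatment, qNSC2 made up 29.4% in KO mice at 2 days (67 of 228; exact 95% binomial interval 23.6% to 35.8%), 23.1% in KO naive mice (31 of 134), 19.3% in TiCY naive mice (39 of 202) and 1.09% (pC) to 25.7% (pE) in WT. These shares follow the sort gates of each plate, so they are given as values only.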

How the data were processed

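Raw counts per gene and cell were deposited by the authors; per the submitters' processing notes, reads were aligned with STAR to GRCm38 (mm10) and counted with featureCounts, with no version or strand setting given in the sources used here. Of 2584 cells in the main table, 1981 matched a labelled cell and 603 were not used; the separate ischemia table was not used. Of 35606 gene identifiers, 35455 had a symbol, and coordinates are those of the GENCODE annotation of that build.

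Cells sharing a type, letter and treatment were added up, and 4 such sums with under 3 cells entered no comparison (pC for qNSC2, pA and pB for aNSC, pB for TAP). Sums were tested with edgeR 4.0.16 (R 4.3.3; TMM scaling, low-count filter, quasi-likelihood F-test, Benjamini-Hochberg adjustment, threshold 0.05). The model over all arms had the arm as covariate and 34 sums. The WT model had type alone and 19 sums, and the TiCY and KO model had the arm as covariate and 15 sums. DESeq2 1.42.0 was an alternative. No gene count was adjusted for length. The p-values measure the spread between sums of a letter and treatment. KO naive cells and KO cells at 2 days share letter pJ and enter as separate sums, in the sign-flip test too, so the contrast with astrocytes rests on letters pJ and pM alone. In that model each arm holds 1 sum per type, so the spread is how type differences vary between arms. On simulated counts for the contrast with aNSC (16767 genes, 200 changed), 99% of genes changed 8-fold and 100% of those changed 32-fold were called, and 2.45% of the calls were false. The simulated sums had the same spread for every gene and no letter or arm effects. These rates therefore do not carry over to the real sums, which differ by letter.

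Same-lettered WT sums of different types deviated together (every correlation of deviations above 0.1, and qNSC2 with qNSC1 0.249 to 0.703). Between different letters qNSC2 and qNSC1 had -0.563 to 0.369 (median -0.175), the highest being qNSC2 of pD with qNSC1 of pC. The letters thus pair the types, but some different letters deviated together as well. Named genes were the 10 highest and 10 lowest called genes per contrast with one direction in every letter and at least 20 CPM in the higher type, the markers, and the 2 called members of largest change per direction in each of 32 lists; for arm against arm, list members and markers. For astrocytes and qNSC1, lists with no called member are illustrated by members chosen after their values were seen, as were Egfr, Aqp4, Fos and Gria2 where they did not pass. The cells and the lists were chosen with earlier results of these data known. Promoters are from RefSeq GRCm38.p6; those of Tshr and Ccnd2 were not used here.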

Additional observations from a re-analysis of the deposited data

Results flagged for a closer look

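In 14 of 85 genes examined in the 4 WT qNSC2 sums, one sum lay far from the other 3 by Dixon's gap ratio. Chance gives this in about 1 of 20 groups of independent, normally spread values. The 85 genes were picked from these data and share the 4 sums, and CPM need not be normally spread. The count of 14 is therefore not set against that rate. In 10 of the 14 the sum apart was that of pD, always above the others: Ccnd2 had 1871 CPM, Rps9 858 CPM, Fbxo2 426 CPM, Nfix 380 CPM, Mex3a 169 CPM, Lrrc23 120 CPM, Mki67 71.7 CPM, Aurkb 20.1 CPM, Ifnar2 14.6 CPM and E2f1 12.7 CPM. This is also the letter in which 9 of 34 qNSC2 cells had at least 5 mitosis genes. The qNSC1 cells of pD shared part of this. Their Ccnd2 was 1763 CPM, against 57.3 (pE) to 286 CPM (pC) in qNSC1 of the other letters. At matched depth, pD had a median of 2246 genes per cell in qNSC2 and 2203 in qNSC1. In pA these medians were 4821 and 4455, in pB 4839 and 4390, and in pE 4678 and 4477. The part of cycling cells, or of the libraries of pD, in these levels was not tested. The other 4 were Bmpr1b (300.5 CPM) and Bcat1 (19.9 CPM) in pE, Cfap65 (53.5 CPM), a cilium protein, in pB, and Erbb4 (18.4 CPM), a neuregulin receptor, in pA.

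The 5 TiCY qNSC2 cells at 2 days after ischemia, which enter no comparison of types, had 5281 CPM of Gfap, 2834 CPM of Vim and 276 CPM of Serpina3n, against 185, 201 and 4.77 CPM in TiCY naive qNSC2. With 5 cells of 1 letter there is no test.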

How the results depend on the processing

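No named gene changed direction under any alternative run, but counts of calls moved. Against aNSC (489 genes) they were 1707 with DESeq2, 129 with sums of at least 7 cells, 842 with the replicate block, 15 in WT alone, 190 in TiCY and KO alone, 235 with only the sums of both types, and 126 to 824 with 1 letter and treatment left out; of 33 named called genes, 16 passed without pE. Against TAP they were 536 in WT alone, 1477 in TiCY and KO alone, 1786 with only the sums of both types, and 1695 to 3034 with 1 left out, and against neuroblasts 1157 in WT alone and 1530 with only the sums of both types. Against qNSC1 (6 genes) they were 264 with DESeq2, 0 with sums of at least 7 cells (1064 at an unadjusted p under 0.05), 1 with thinned cells, 26 with the replicate block, 13 in pA, pB and pE, 0 in pC and pD (700 at an unadjusted p under 0.05; both splits chosen after seeing the data), and 0 to 19 with 1 letter left out. Against astrocytes (14 genes) they were 6 with DESeq2's size factors in edgeR, 204 with DESeq2, 189 with no low-count filter, 142 with thinned cells, 9 with type alone in the model, and 0 to 4 with 1 arm left out. The cause was not tested. The replicate block changed no other call count by over 1.5 times. Constant genes at 4-fold, both directions together, numbered 44 against qNSC1, 79 against astrocytes, 45 against aNSC, 381 against TAP, 350 against neuroblasts and 0 against every type; with 1 CPM added they numbered 430 against qNSC1 and 1003 against astrocytes; with 1 letter left out, 6 to 10 genes were constant against every type. DESeq2's size factors in edgeR moved the median over all genes by over 0.1 against TAP (to 0.47) and neuroblasts (to 0.41). Genes of under 10 CPM in sums of 3 cells rest on few counts.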

Other observations

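Of 18 glycolysis genes 10 rose and 1 fell in qNSC2 against neuroblasts (median log2 fold change 1.43, against 0.18 over all genes; edgeR's quasi-likelihood test with Benjamini-Hochberg adjustment), and 6 rose against TAP. The glucose transporter Slc2a1 averaged 78.3 ± 28.9 CPM in qNSC2 and 1.75 ± 1.88 CPM in neuroblasts (SD, n = 7 each; adjusted p = 7.6e-07). The platelet phosphofructokinase Pfkp was the 1 that fell, with 0 to 46.4 CPM in qNSC2 and 2.22 to 568 CPM in neuroblasts (-3.57 ± 0.82, adjusted p = 0.0019). Of 12 hypoxia genes 6 rose against neuroblasts and 4 against TAP. Egln3, an oxygen-sensing prolyl hydroxylase, had 3.06 to 196 CPM in qNSC2 and 0 to 1.54 CPM in TAP (adjusted p = 0.018). Over all genes 12.1% rose against neuroblasts and 8.91% against TAP. Of 19 cholesterol synthesis genes 4 rose against neuroblasts, and only 1, a share below that of all genes, against TAP: the sterol oxidase Msmo1 had 60.4 to 310 CPM in qNSC2, 7.69 to 54.8 CPM in TAP and 0 to 24.4 CPM in neuroblasts. Of 23 oxidative phosphorylation genes 1 fell against TAP and 1 rose against neuroblasts, both below the share of all genes.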
